A study of Mus musculus with 2 samples.

Results

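Hapln2-low oligodendrocytes, as the term is used here, are mature oligodendrocytes of the mouse hippocampus that hold few transcripts of Hapln2 and Serpinb1a. Hapln2 encodes a link protein of the hyaluronan matrix at nodes of Ranvier, and Serpinb1a an inhibitor of serine proteases. In the annotation of build GRCm38 Hapln2 lies on chromosome 3 from 88021750 to 88027583 (minus strand) and Serpinb1a on chromosome 13 from 32842092 to 32851185 (minus strand). A barcode was a member if it held at least 10 unique molecular identifiers (UMIs, each standing for 1 captured RNA molecule) of Mog, Mag, Ermn, Opalin and Cldn11 together. It also had to hold fewer than 8 UMIs of 6 choroid plexus genes, fewer than 10 of 5 microglia genes, and 2 or fewer of Hapln2 plus Serpinb1a. This took 602 of 10015 barcodes, 251 of them wt and 351 GlaKO. The oligodendrocytes above the cut, called Hapln2-rich, numbered 1641, of which 610 were wt and 1031 GlaKO.

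Oligodendrocytes make the myelin sheath of axons, a membrane rich in cholesterol and galactolipids and held together by proteins such as those of Mbp, Mag and Mog. Mature oligodendrocytes are known to differ in expression: some are marked by Klk6 and Hopx, others by Ptgds, which encodes prostaglandin D synthase, and Il33, an alarmin cytokine. Gla encodes alpha-galactosidase A, the lysosomal enzyme that takes the terminal galactose from glycosphingolipids and is missing in Fabry disease.

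The 2 libraries were 3' single-cell libraries from the hippocampus of mice aged 57 weeks, 1 from wt littermates and 1 from mice with the knockout labelled GlaKO. All mice were anaesthetised with xylazine and ketamine and perfused, the tissue was dissociated with enzymes, and dying cells were sorted out with 7-AAD. No other treatment is listed for either group. How many mice gave each library and how the knockout was made are not stated. With 1 library per genotype no test was possible: each interval below is a 95% interval for counting error alone, it takes UMIs as independent, and every difference between genotypes is one between these libraries.

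Gla itself was too sparse in the members to check the genotype. It had 14 UMIs in the wt members, 11.9 CPM (the UMIs of a gene per 1000000 UMIs of the summed cells), and 12 UMIs or 6.25 CPM in the GlaKO members. The log2 ratio of GlaKO over wt was -0.92 with an interval from -2.17 to 0.30. A 3' count can read transcripts that carry a deletion or an insertion elsewhere in the gene.

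The members carried the markers of oligodendrocytes. A UMI of Mal, which encodes a myelin proteolipid, was present in 251 of 251 wt and 350 of 351 GlaKO members, with medians of 36 and 39 UMIs per cell. In astrocytes of the same libraries the median was 0, at 46.6 CPM in wt and 94.8 CPM in GlaKO, against 9441 and 8083 CPM in the members. A UMI of Ptgds was present in 250 wt and 349 GlaKO members, with medians of 83 and 94 UMIs, where astrocytes had medians of 0 and 1. Ptgds is less particular to them: 49.8% of wt and 66.7% of GlaKO astrocytes held a UMI, at 2410 and 326 CPM. Choroid plexus cells, 2549 in wt and 804 in GlaKO, held 74452 and 27403 UMIs of it. Opalin, a membrane protein of central myelin, was present in 96.8% of wt and 98.3% of GlaKO members, against 3.64% and 8.56% of astrocytes, and median depths were 4650, 5387, 2978 and 3340.5 UMIs in that order. Mog and Cldn11 were present in 97.6% to 99.4% of members. Opalin, Mog and Cldn11 belong to the gate, so their presence is in part its result.

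Members were shallower than Hapln2-rich cells. They held a median of 4650 UMIs in wt and 5387 in GlaKO, against 6385.5 and 7198 in Hapln2-rich cells. The median mitochondrial share was 2.92% and 2.82% in members and 2.49% and 2.48% in Hapln2-rich cells. At least 5 UMIs of the markers of another cell type (astrocyte, precursor, neuron, vascular or lymphocyte lists) were held by 20 wt members (7.97%) and 49 GlaKO members (14.0%). The summed CPM of 6 astrocyte markers was 276 in wt and 548 in GlaKO members, that of 6 precursor markers 98.3 and 215, that of 6 neuron markers 159 and 414, and that of 4 T cell markers 11.9 and 85.5. Cd79a and Cd79b, which define B cells, had no UMI in members of either library. The 9 microglia markers summed to 133 and 191 CPM. The gate limits only 5 of them, and 4 wt and 13 GlaKO members held 5 or more UMIs of the 9. The 6 choroid plexus markers measured, all limited by the gate, summed to 112 and 33.3 CPM. The libraries shared 6 barcodes, none of them a member.

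The cut divided a continuous range. In the wt library 108 oligodendrocytes held 2 UMIs of Hapln2 plus Serpinb1a, just inside the cut, and 88 held 3, just outside it. In the GlaKO library the counts were 134 and 130. The median oligodendrocyte held 5 UMIs in each library. Among wt members 51 held neither gene, 105 Hapln2 alone, 53 Serpinb1a alone and 42 both, and among GlaKO members the counts were 87, 148, 57 and 59.

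**Figure D1:**
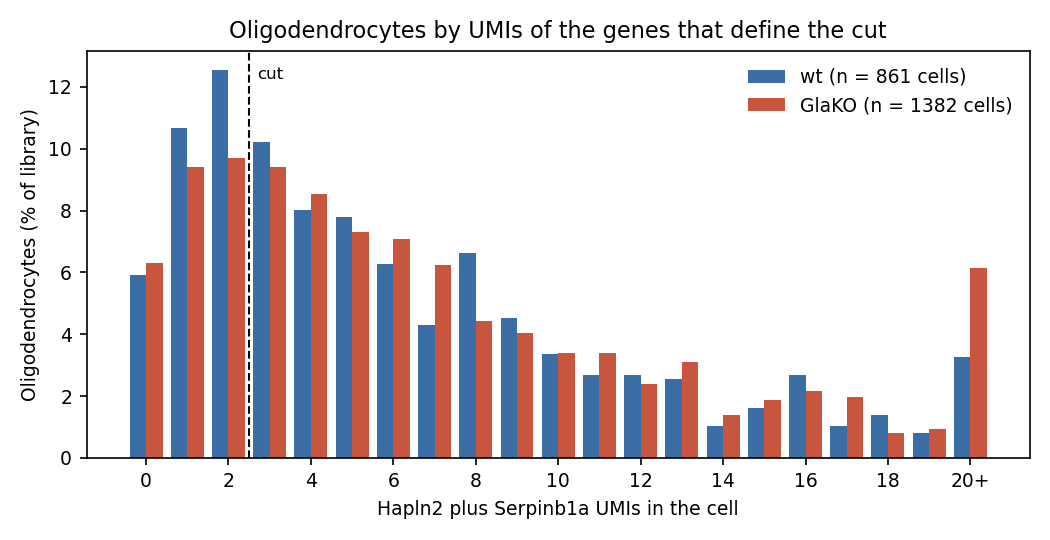
Share of the oligodendrocytes of each library (y axis, %) by UMIs of Hapln2 plus Serpinb1a in the cell (x axis, 20 or more in the last bar), for wt (861 cells, blue) and GlaKO (1382 cells, red). The dashed line is the cut after 2 UMIs; both distributions run across it without a gap.

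Members made up 29.2% of the wt oligodendrocytes (251 of 861; exact Clopper-Pearson interval 26.1 to 32.3%) and 25.4% of the GlaKO oligodendrocytes (351 of 1382; 23.1 to 27.8%). These intervals overlap. The share depended on depth: under 3000 UMIs it was 42.5% in wt and 35.5% in GlaKO, and from 7000 UMIs 10.9% and 12.9%. When each cell was thinned to 2000 UMIs and the cut set at no UMI, the shares were 22.5% and 24.3%, so the order of the genotypes was not the same. Of all barcodes, members were 4.61% of the wt and 7.68% of the GlaKO library. The wt library held 2549 and the GlaKO library 804 barcodes of the choroid plexus, which enter that denominator.

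Within each library, members were set beside Hapln2-rich cells as a description, since the cut was made on genes of these same cells. The values of both genotypes are given side by side. Of 6106 genes with at least 100 UMIs in each library, 60 (0.983%) were at least 1.5-fold higher in members in both libraries with both intervals above equal levels, and 102 (1.67%) were lower by the same rule, 2.65% in either direction. The median log2 ratio over all 6106 genes was -0.01 in each library.

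Genes higher in members included several receptors and adhesion molecules. Kit, the receptor tyrosine kinase for stem cell factor, stood at 50.0 CPM in wt members and 13.4 CPM in wt Hapln2-rich cells, and at 98.5 and 16.6 CPM in GlaKO. The log2 ratios were 1.90 (1.34 to 2.47) in wt and 2.57 (2.24 to 2.91) in GlaKO. Slc9a3r2, which encodes a PDZ scaffold protein, had ratios of 1.95 (1.42 to 2.48) and 2.30 (1.88 to 2.73). Members stood at 5.43% of the Slc9a3r2 level in the wt endothelium, a class with 75 wt and 0 GlaKO barcodes. Cntn1 and Kirrel3, both immunoglobulin-type adhesion molecules, had ratios of 1.52 and 1.57, and 1.47 and 1.5. Cntn1 in members stood at 5.23% and 4.93% of the precursor level. Gabrr2, a rho subunit of GABA receptors, had ratios of 1.45 and 1.61 at 42.4 and 33.3 CPM in members. Gfra1, a co-receptor for glial cell line-derived neurotrophic factor, had 1.28 in both libraries. Ptprs, a receptor tyrosine phosphatase, had 1.53 and 1.19 at 9.66% and 8.75% of the precursor level, and Adamts1, a secreted metalloprotease, 1.47 and 1.23. Tmem163, a zinc transporter, Phlda1, and Prickle1 of the planar polarity pathway had ratios from 1.07 to 1.34. Atf3, a stress-induced transcription factor, had 1.38 and 1.57 at 108 and 105 CPM, 3.27% and 3.06% of its level in the microglia of the same library. With the cut at no UMI after thinning its wt ratio was -0.018.

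Genes lower in members included carriers, a lipid droplet coat protein and a channel. Selenop, the selenium carrier selenoprotein P, stood at 323 CPM in wt members and 905 CPM in wt Hapln2-rich cells, and at 234 and 936 CPM in GlaKO, with log2 ratios of -1.49 (-1.64 to -1.33) and -2.0 (-2.14 to -1.86). Plin3, a coat protein of lipid droplets, had ratios of -1.62 and -1.82, and Slco3a1, an organic anion transporter, -1.43 and -1.90. Hcn2, a cation channel opened by hyperpolarisation, had -1.50 and -1.26. Aven, an inhibitor of apoptosis, had -2.44 and -1.82 from 11 and 28 UMIs in members. Carns1, which makes carnosine, Cd59a, an inhibitor of complement lysis, Tln2, an integrin adaptor, Tspan9, Hivep3, Mob3b and Gm12326 lay between -2.25 and -1.18 in both libraries. Hivep3 rested on 11 and 11 UMIs in members, Tspan9 on 10 and 21, and Gm12326 on 11 and 18. Members stood at 8.17% and 9.63% of the astrocyte level of Tspan9 and at 6.79% and 8.28% of the choroid plexus level of Cd59a. For Hivep3 they stood at 6.84% of the astrocyte level in wt and 4.36% of the neuron level in GlaKO.

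All 4 genes listed for Klk6-type mature oligodendrocytes were lower in members with both intervals below equal levels, and 3 of them passed 1.5-fold. Over all genes compared, 5.62% had both intervals below equal levels and 3.73% had both above. Klk6, a secreted serine protease, had 7 UMIs in wt members and 142 in wt Hapln2-rich cells, a log2 ratio of -2.65 (-3.99 to -1.57). In GlaKO it had 1 and 449 UMIs, a ratio of -6.85 (-12.15 to -4.36). Hopx, a homeodomain protein without DNA binding of its own, had ratios of -2.18 and -2.31, with members at 5.64% and 4.54% of the astrocyte level. Anxa5, an annexin, had -1.04 and -0.93, and Mgst3, a microsomal glutathione transferase, -0.84 and -0.39. The median of the 4 was -1.61 in wt and -1.62 in GlaKO. The cut was made on the same cells, so these counts are a description only.

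The 10 genes listed for Ptgds-type mature cells did not move as one: 2 had both intervals above equal levels and 4 had both below, and 1 and 3 passed 1.5-fold. The shares over all genes compared were 3.73% and 5.62% by both intervals, and 0.983% and 1.67% at 1.5-fold. Ptgds stood at 22999 CPM in wt members and 14720 CPM in wt Hapln2-rich cells, and at 21743 and 12805 CPM in GlaKO, with log2 ratios of 0.64 (0.62 to 0.66) and 0.76 (0.75 to 0.78). Il33 had ratios of 0.08 and 0.14. Apod, a lipocalin that carries lipids, had -0.97 and -1.23, Trf, the iron carrier transferrin, -0.61 and -0.78, and Anln, the septin scaffold anillin, -1.07 and -1.21. Apoe and Qdpr lay between -0.10 and 0.13.

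**Figure D2:**
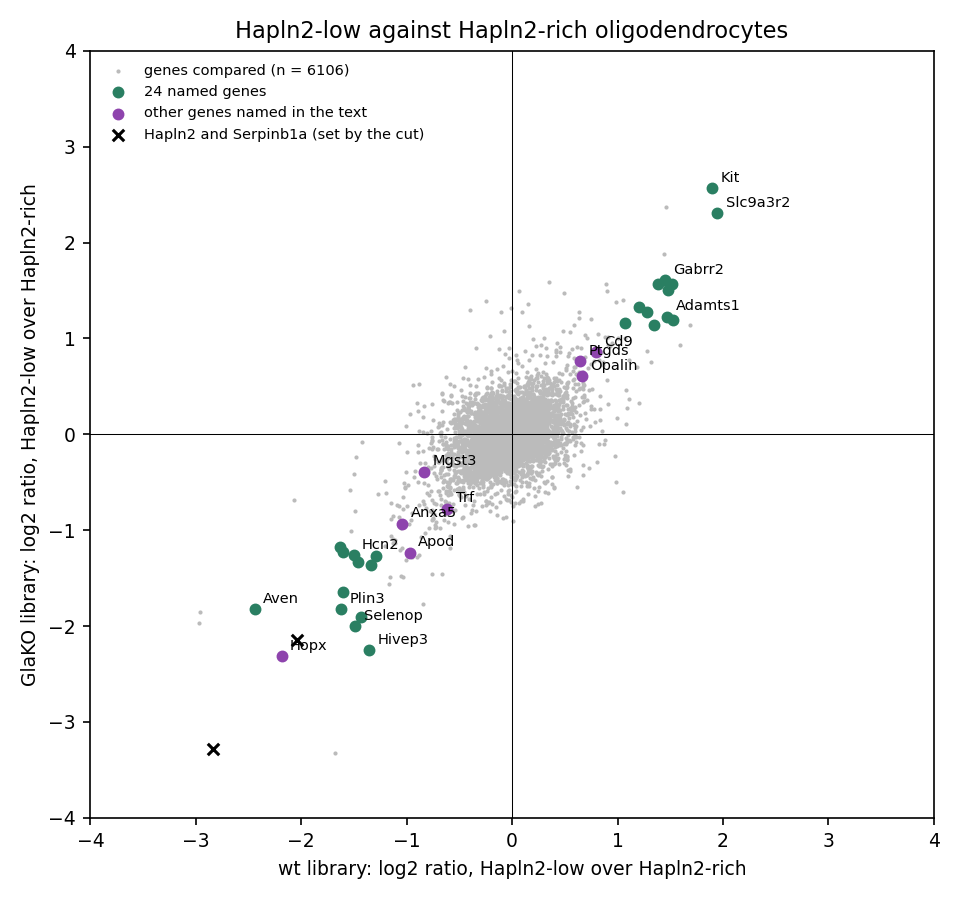
Log2 ratio of Hapln2-low over Hapln2-rich oligodendrocytes in the wt library (x axis) and the GlaKO library (y axis) for 6106 genes (grey), the 24 named genes (green), 8 further genes of the text (purple) and the 2 cut genes (crosses). Named genes lie at the ends of the cloud in both libraries; 1 gene lies beyond the axes.

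Structural myelin genes outside the gate differed little and in both directions. Of 12 measured, 5 were higher and 3 lower by both intervals, beside 3.73% and 5.62% of all genes compared. Of these 12, 1 passed 1.5-fold, and their medians were 0.02 in wt and -0.04 in GlaKO. Cd9, a tetraspanin of the outer myelin layer, had log2 ratios of 0.80 and 0.86, Tspan2, another tetraspanin, 0.49 and 0.39, and Mal 0.37 and 0.28. Mbp, the basic protein that compacts myelin, had -0.11 and -0.12. Gjb1, the gap junction protein connexin 32, was lowest of the list at -0.65 and -0.48. Opalin, a gate gene, stood at 1644 and 1519 CPM in members against 1038 and 995 CPM in Hapln2-rich cells.

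Lipid synthesis was lower in part of the list. Of 18 genes for galactolipids and fatty acids, 6 were lower by both intervals and none higher, with medians of -0.14 and -0.13. Among all genes compared, 5.62% were lower and 3.73% higher by both intervals. Elovl5, a fatty acid elongase, had -0.58 and -0.62, and Ugt8a, which makes galactosylceramide, -0.19 and -0.24. Of 17 cholesterol synthesis genes 1 was lower by both intervals. Of 10 genes for axon support, ions and iron, 6 were lower by both intervals, with medians of -0.30 and -0.34. Among them Fth1, the ferritin heavy chain, had -0.29 and -0.42, Car2, carbonic anhydrase 2, -0.32 and -0.39, and Tfrc, the transferrin receptor, -0.46 and -0.61. Lineage transcription factors were close to level: Sox10 had 0.04 and -0.02 and Myrf -0.04 and -0.20, and 1 of 9, Olig2 (0.34 and 0.58), was higher by both intervals. Enpp6, a choline phosphodiesterase of newly differentiated oligodendrocytes, had -2.97 (-3.72 to -2.31) and -1.97 (-2.36 to -1.61). Of its 65 UMIs in GlaKO members 44 sat in 2 cells, described below with the newly formed cells, and without them the GlaKO ratio was -3.57 (-4.27 to -2.95). Bcas1, also a gene of early myelinating cells, had 0.25 and 0.34.

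Immediate-early genes, which answer within minutes to stimulation and also to dissociation of tissue, were higher in members. Of 18 measured, 11 were higher by both intervals and none lower, 3 passed 1.5-fold, and the medians were 0.38 in wt and 0.57 in GlaKO. Among all genes compared, 3.73% were higher and 5.62% lower by both intervals, and 0.983% were higher by 1.5-fold. Fos stood at 4237 and 4008 CPM in members against 3180 and 2676 CPM in Hapln2-rich cells. Dusp1, a phosphatase of MAP kinases, had ratios of 0.57 and 0.89, and Nr4a1, a nuclear receptor, 0.59 and 0.71. With the cut at no UMI, Nr4a1 in wt was at -0.048. Cdkn1a, the cell cycle inhibitor p21, had 1.46 and 2.37 from 94 and 77 UMIs in members, which were at 6.59% of its level in the wt endothelium and 10.1% of its level in the GlaKO microglia. Its GlaKO-to-wt ratio in members moved when the top cell of each group was left out, as given below. Single cells thus weigh on these UMIs and on the GlaKO ratio. The 13 mitochondrially encoded genes had medians of 0.16 and 0.18, with 10 higher by both intervals, beside the higher mitochondrial share given above. Among antioxidant genes, Gstm1, a glutathione transferase, had -1.05 and -1.19, with members at 10.0% and 8.43% of the astrocyte level, and 2 of 15 were higher and 4 lower by both intervals.

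The levels were also set out along the cut genes, as a description, since these are the genes of the rule. All oligodendrocytes were thinned to 2000 UMIs and grouped by the UMIs of the cut genes left, from 0 to 4 or more, which in wt gave 183, 181, 134, 105 and 212 cells and in GlaKO 323, 297, 232, 165 and 311 cells. Selenop went through 374, 470, 638, 981 and 1238 CPM in wt and 370, 485, 741, 921 and 1511 CPM in GlaKO. Apod went through 1448, 1785, 2340, 2814 and 3922 CPM in wt and 1430, 1823, 2476, 2870 and 4979 CPM in GlaKO. Ptgds ran the other way, from 22637 to 13823 CPM in wt and from 19783 to 12751 CPM in GlaKO. Klk6 lay mostly in the last group, at 104 CPM in wt and 178 CPM in GlaKO, with 0 to 36 CPM in the other groups. Mbp stayed between 4962 and 6353 CPM in all groups. After thinning each group mixes members and Hapln2-rich cells, so these means do not tell a graded change from a stepped one.

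**Figure D3:**
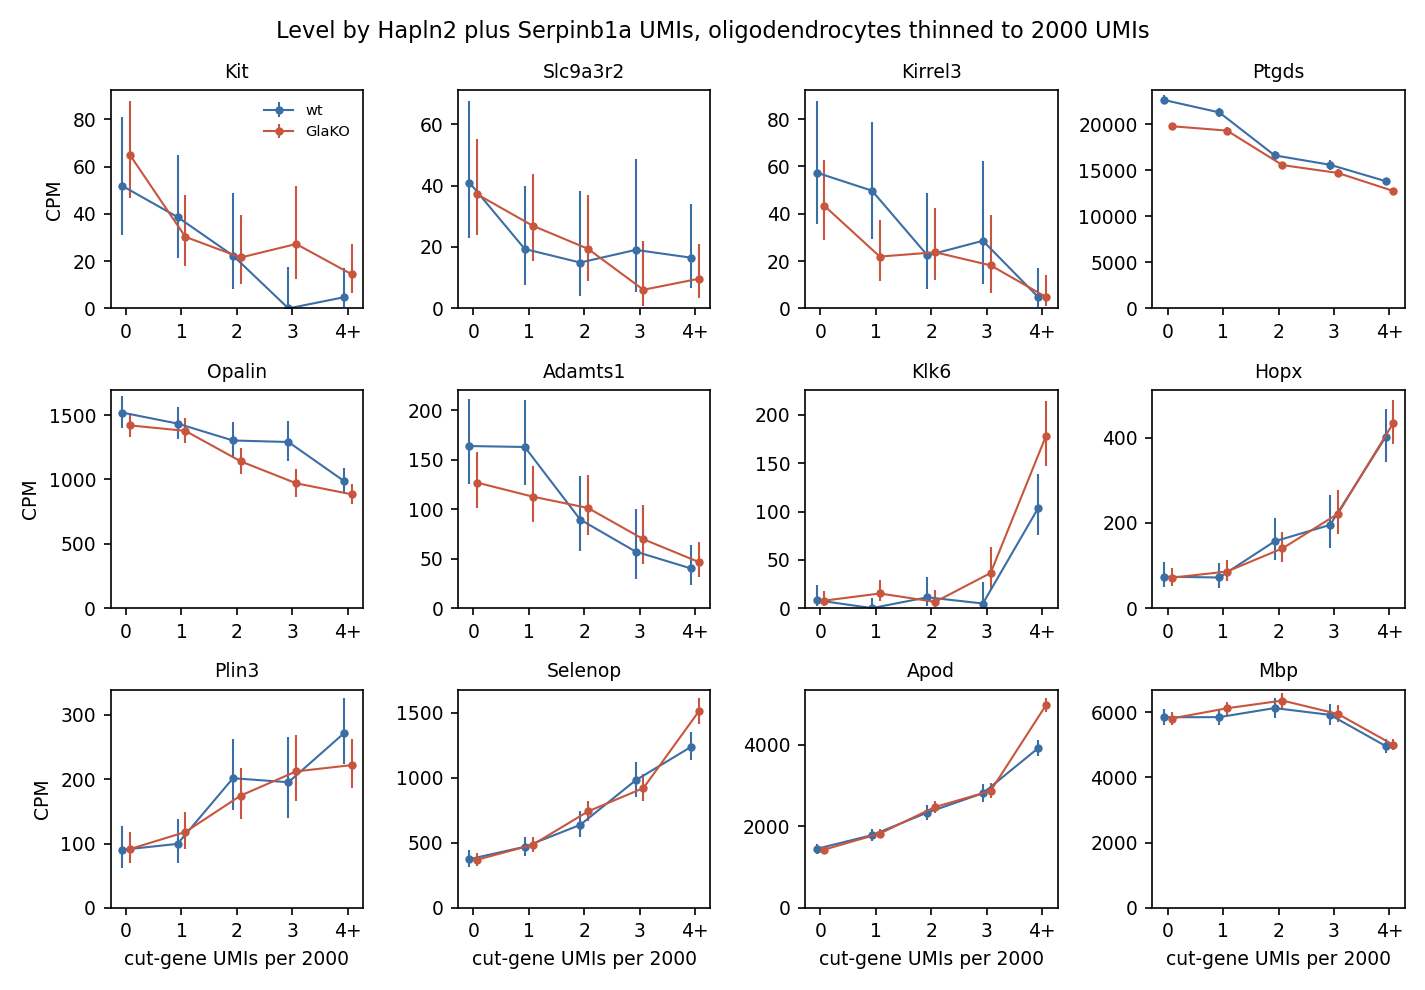
Level (y axis, CPM) of 12 genes by the UMIs of Hapln2 plus Serpinb1a in cells thinned to 2000 UMIs (x axis), in the wt (blue) and GlaKO (red) libraries; bars are 95% Poisson intervals. Selenop, Apod, Plin3 and Hopx are higher in the last group than in the first, and Ptgds, Opalin and Adamts1 lower, in both libraries.

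Members differed widely among themselves in Ptgds. In members thinned to 2000 UMIs, Ptgds ran from 12 UMIs at the 10th percentile through a median of 41 to 93 at the 90th in wt, and from 12 through 41 to 83.6 in GlaKO. Its variance over its mean was 29.96 in wt and 26.2 in GlaKO, where counting alone gives about 1. Mal had 5.21 and 4.01, and Opalin 1.69 and 1.55 by that measure. For the same relative spread the measure rises with the mean, so it does not rank these genes by relative spread. In wt the means were 48.1 UMIs for Ptgds, 18.5 for Mal and 3.17 for Opalin. All values of spread rest on cells of 1 library each and take in the cells with markers of other types.

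Clustering the members without batch correction gave 5 clusters, left unnamed. Cluster 0 held 80 wt and 139 GlaKO cells and was shallow at a median of 3137 UMIs. It was led by Crybg3, C1qc, Ctss, C1qa and Lama2. C1qc, C1qa and Ctss are microglia genes, and microglia markers stood at 336 CPM in it. Ranks 7 to 10 were Slco3a1, Selenop, Cd59a and Anln, genes that were lower in members than in Hapln2-rich cells. Selenop stood at 522 CPM in cluster 0 and 160 CPM in the other members. The part of depth in this was not tested. Cluster 1 held 115 wt (45.8% of wt members) and 100 GlaKO cells (28.5%) and was led by Fahd2a, Tipin, Zfp580, CAAA01147332.1 and Chchd5. Cluster 2, of 49 wt and 95 GlaKO cells with a median of 6738.5 UMIs, was led by 9530059O14Rik, Pak4, Dll1, Ust and Lima1. Cluster 3 held 13 cells led by the astrocyte genes Gja1, Cldn10, Ntsr2, Slco1c1 and S1pr1, with astrocyte markers at 8006 CPM. Cluster 4 held 2 wt and 9 GlaKO cells with Trbc2, Cd69, Gzmk and Lck among its leading genes, neuron markers at 7304 CPM and T cell markers at 1678 CPM. Median depth differed between clusters and between the libraries, and its part in the genotype counts was not tested.

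A few GlaKO members carried the transcripts of newly formed oligodendrocytes. Gpr17, a receptor of cells on the way from precursor to oligodendrocyte, Bmp4, a secreted growth factor, Neu4, a sialidase, and Tnr, the matrix protein tenascin-R, summed to 508 UMIs in GlaKO and 22 in wt members. One GlaKO cell of 23924 UMIs held 292 of these and another of 17367 UMIs held 125. These 2 cells also held 13 and 24 UMIs of the markers of another cell type, so both are among the cells holding other markers. In the cell of 292 there were 110 UMIs of Gpr17, 61 of Bmp4 and 93 of Fyn, a kinase of early myelination, but 0 of Opalin and Mal and 7 of Ptgds. No wt member held more than 4 such UMIs. At 25 UMIs or more, 3 of 351 GlaKO and 0 of 251 wt members counted. The third of these held 15 UMIs of Tnr, 6 of Neu4, 4 of Gpr17 and 0 of Bmp4. Beside them were 26 UMIs of the precursor gene Pdgfra and 64 of Ptgds, so its transcripts were mixed. A count of 0 allows a share of up to about 1.20%, taken as 3 divided by 251 and not as a Clopper-Pearson limit. With the first 2 cells left out, Gpr17 had a GlaKO-to-wt log2 ratio of 0.68 (-0.37 to 1.83) instead of 3.49, and for Fyn 0.35 (-0.06 to 0.77) instead of 1.21. Tnr had 4.27 (3.02 to 5.91) from 5 and 157 UMIs with all cells, 2.37 (1.03 to 4.06) from 5 and 41 without those 2, and 1.71 (0.31 to 3.45) without all 3. Without cells holding other markers its interval ran from -0.86 to 3.01. The threshold of 25 UMIs was set after the values were seen.

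Between the genotypes, 4779 genes reached 100 UMIs over the members of both libraries. At least 1.5-fold with the interval beyond equal levels, 169 (3.54%) were higher and 52 (1.09%) lower in GlaKO, 4.62% in either direction, and the median log2 ratio was 0.03. Without the cells holding markers of other types, 88 of 4137 genes were higher and 52 lower. Of the 169, 65 were among those 88, and of the 52, 38 remained. With TMM scaling, which moved the median to -0.03, the counts were 128 and 84.

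Vegfa, a growth factor for blood vessels, was higher in GlaKO members: 44 UMIs or 37.3 CPM in wt against 207 UMIs or 108 CPM, a log2 ratio of 1.53 (1.06 to 2.04). In Hapln2-rich cells it was at 26.5 and 38.9 CPM, a ratio of 0.55 (0.22 to 0.89). Astrocytes held more Vegfa, 539 and 775 CPM, so that members stood at 6.92% of that level in wt and 13.9% in GlaKO, and astrocyte markers were also higher in GlaKO members, as given above. Their part in the Vegfa difference was not tested beyond the value without cells holding other markers, 1.25 (0.75 to 1.76). In astrocytes, microglia, neurons, precursors and choroid plexus cells the Vegfa ratio lay between 0.09 and 0.73. Pabpc1, the poly(A)-binding protein, had 1.35 (1.04 to 1.68) in members, 0.74 in Hapln2-rich cells, 1.20 in neurons, 1.10 in astrocytes and 0.51 to 0.78 in 4 other classes. Ifnar1, a chain of the receptor for type I interferons, had 1.07 and 0.00 from 24 and 82 UMIs in members, which stood at 9.58% of its level in the wt endothelium. Setd1b, a histone methyltransferase, had 1.18 and 0.05, Crlf3 1.15 and 0.03, and Rlf 0.98 and -0.03. Golga3, Ikzf5 and Tubb2a lay between 1.01 and 1.30 in members and 0.35 and 0.88 in Hapln2-rich cells, and Tubb2a in members stood at 5.73% and 11.5% of the neuron level. Kit, high in members of both libraries, was at 50.0 CPM in wt and 98.5 CPM in GlaKO members, a ratio of 0.98 (0.55 to 1.42), which was 0.58 without cells holding other markers and 0.51 (-0.23 to 1.27) with all cells thinned to 2000 UMIs. After that thinning Crlf3 was at 0.61 (-0.52 to 1.86), Golga3 at 0.72 (-0.53 to 2.12), Tubb2a at 0.80 (-0.13 to 1.81) and Rlf at 0.85 (-0.25 to 2.07), intervals that include equal levels. Vegfa was at 1.04 (0.26 to 1.87) and Pabpc1 at 0.92 (0.42 to 1.44).

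Hbb-bs, a beta-globin of red blood cells, had 23 UMIs in wt and 139 in GlaKO members, a ratio of 1.89 (1.25 to 2.60). It had 5.84 in Hapln2-rich cells, where 1 GlaKO barcode held 92.6% of the Hbb-bs UMIs, and 2.09 (1.65 to 2.56) without that barcode. In 5 other classes of these libraries it lay between 1.94 and 2.36. Erythroid genes summed to 27.1 CPM in wt and 123 CPM in GlaKO members, and no member held 5 or more of their UMIs.

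Among genes lower in GlaKO members, Gstp1, a glutathione transferase, rested on the most UMIs. It had 2770 UMIs or 2348 CPM in wt and 2310 UMIs or 1204 CPM in GlaKO members, a log2 ratio of -0.96 (-1.04 to -0.88), and -0.89 in Hapln2-rich cells. In 6 other classes it lay between -0.96 and -0.66. Gstp1 has a near-identical neighbour in the mouse, so its count is uncertain where reads could be split. The same limit holds for Nme2 (-1.90), Hist2h2aa1 (-1.89) and Gm10076 (-1.46), which have near-identical copies and had ratios of -1.80, -1.92 and -1.46 in Hapln2-rich cells. Gm26825 was at -2.04 in members and -2.30 in Hapln2-rich cells. Arl4d, a small GTPase, had -0.86 and -0.40, Chka, choline kinase alpha, -0.89 and -0.22, Csnk1d, casein kinase 1 delta, -0.86 and 0.06, and Tmem192, a lysosomal membrane protein, -0.90 and -0.31. After thinning to 2000 UMIs the interval of Chka ran from -1.32 to 0.27. Rtkn2 (-1.05) and Gm15417 (-0.87) had -0.19 and -0.33 in Hapln2-rich cells.

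Genes that glucocorticoids are known to raise were lower in GlaKO members. Of 12 measured, 10 lay below equal levels, 9 with the interval below and 1 with the interval above, and 5 passed 1.5-fold. Over all genes compared, 6.36% had the interval below equal levels and 9.52% had it above. The median was -0.37 here and also -0.37 in Hapln2-rich cells. Sgk1, a kinase that regulates ion transport, was at 1874 CPM in wt and 1073 CPM in GlaKO members, a ratio of -0.80 (-0.89 to -0.72), beside -0.96 in Hapln2-rich cells. In astrocytes, microglia, neurons, precursors and choroid plexus cells Sgk1 lay between -0.24 and 0.21. Cdkn1a had -0.99 (-1.44 to -0.54), Arrdc2, an arrestin-domain protein, -0.87 (-1.24 to -0.51), Mt2, a metallothionein, -0.73 (-1.06 to -0.40), and Nfkbia, the inhibitor of NF-kappa-B, -0.65 (-0.88 to -0.42). Cdkn1a was at -1.62 without its top cell in each group and at 1.24 with the cut at no UMI. With all cells thinned to 2000 UMIs Arrdc2 was at -0.55 (-1.13 to 0.03) and Mt2 at -0.35 (-0.90 to 0.21), while Sgk1 was at -0.75 (-0.89 to -0.61). Nr3c1, the glucocorticoid receptor itself, had 0.24 (0.00 to 0.47), and Tsc22d3, another target, -0.04 (-0.37 to 0.30).

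Antioxidant genes leaned lower in GlaKO members, 12 of 14 below equal levels and 5 with the interval below, with a median of -0.23 against -0.06 in Hapln2-rich cells. Among all genes compared, 6.36% had the interval below. Gpx4, which reduces lipid peroxides, had -0.24 (-0.34 to -0.14), and 1 gene, Gstp1, passed 1.5-fold. With all cells thinned to 2000 UMIs the median was 0.01.

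Genes of the unfolded protein and amino acid stress responses leaned higher, 10 of 13 above equal levels and 7 with the interval above, with a median of 0.33 against 0.07 in Hapln2-rich cells. Among all genes compared, 9.52% had the interval above and 6.36% below. Slc38a2, a neutral amino acid transporter, was at 920 CPM in wt and 1389 CPM in GlaKO members, a ratio of 0.59 (0.49 to 0.70), and 0.57 in Hapln2-rich cells. Btg1, an inhibitor of proliferation, had 1.21 (0.88 to 1.56), which was 0.60 without cells holding other markers. Btg1 had 0.93 in Hapln2-rich cells and 0.66 to 1.13 in 6 other classes. Pdia4 (0.62), Xbp1 (0.53) and Calr (0.51) of protein folding in the endoplasmic reticulum had 0.16, 0.05 and 0.09 in Hapln2-rich cells. After thinning to 2000 UMIs the intervals of Pdia4, Xbp1 and Calr in members included equal levels. Of 13 heat shock genes 6 had the interval above and 2 below; Hspa1b had 0.82 (0.61 to 1.04) and Hspa1a 0.16 (-0.05 to 0.36), near-identical copies that reads may not tell apart.

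**Figure D4:**
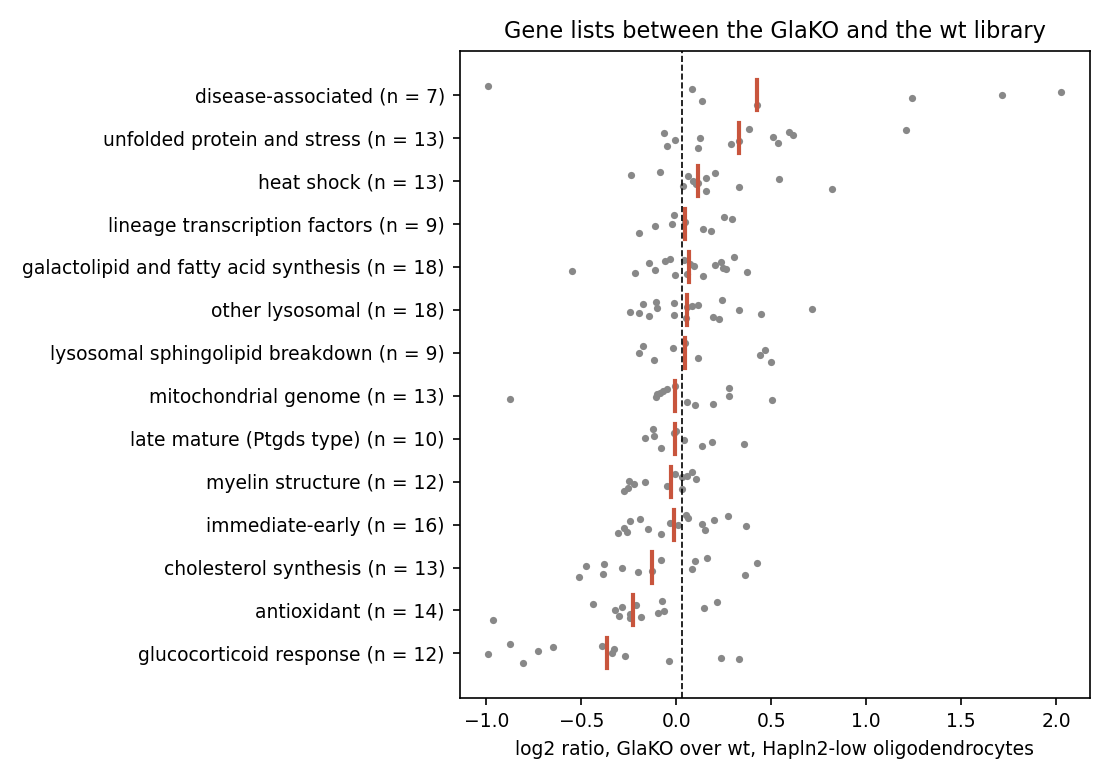
Log2 ratio of GlaKO over wt in Hapln2-low oligodendrocytes (x axis) for the measured genes of 14 lists (grey points, gate and cut genes left out); red bars are list medians and the dashed line is the median of all genes, 0.03. The glucocorticoid list lies lowest at -0.37 and the disease-associated list highest at 0.43. Of the 7 measured genes of the disease-associated list 3 were called higher and 1 lower, beside 3.54% and 1.09% of all genes. That list takes in H2-D1, so it overlaps the MHC class I genes described below.

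Transcripts of major histocompatibility complex (MHC) class I, which presents peptides to T cells, were higher in GlaKO members. B2m, the light chain, was at 33.9 CPM in wt and 138 CPM in GlaKO members, a ratio of 2.03 (1.54 to 2.54). The heavy chains H2-K1 and H2-D1 had 1.72 (1.24 to 2.22) and 1.24 (0.93 to 1.56). In Hapln2-rich cells the 3 ratios were 0.33, 0.38 and 0.22. Without cells holding other markers they were 1.76 (1.21 to 2.36), 0.63 (0.07 to 1.21) and 0.93 (0.59 to 1.28) in members, and with all cells thinned to 2000 UMIs 2.02, 0.91 and 0.95. T cells, 157 in wt and 192 in GlaKO, held 1547 and 2609 UMIs of B2m, where the members held 40 and 265. For H2-K1 the T cells held 2222 and 3694 UMIs and the members 43 and 230. For H2-D1 the counts were 2309 and 3490 against 107 and 411. Over all genes the T cells held 683632 and 1030736 UMIs and the members 1179799 and 1919073. For each of the 3 genes the members thus stood under 10% of the T cell level in both libraries. Genes under that limit were left out when the largest ratios between genotypes were named. Microglia, at 459 and 756 cells, held 4037 and 9185 UMIs of B2m. H2-K1 and H2-D1 are similar in sequence, and reads may be split between them. C4b, a complement component, had 0.43 (0.23 to 0.63) in members and 0.27 in Hapln2-rich cells.

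The MHC class I UMIs sat in few cells. Of 351 GlaKO members, 18 held 10 or more UMIs of B2m, H2-K1 and H2-D1 together (5.13%, 3.07 to 7.98%), and these cells held 62.1% of the UMIs of the 3 genes. Of 251 wt members, 2 did (0.797%, 0.0966 to 2.85%). Without cells holding other markers the counts were 11 of 302 (3.64%, 1.83 to 6.42%) and 2 of 231 (0.866%, 0.105 to 3.09%), intervals that overlap. In Hapln2-rich cells the shares were 1.80% in wt and 1.65% in GlaKO. With all members thinned to 2000 UMIs, 8.0% of GlaKO and 4.42% of wt members held 3 or more, with intervals from 5.29 to 11.5% and from 2.14 to 7.99%. T cell, neuron and microglia markers were higher in GlaKO members, as given above. Their part in the MHC result was not tested beyond the values without cells holding other markers. That filter did not cover microglia markers.

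**Figure D5:**
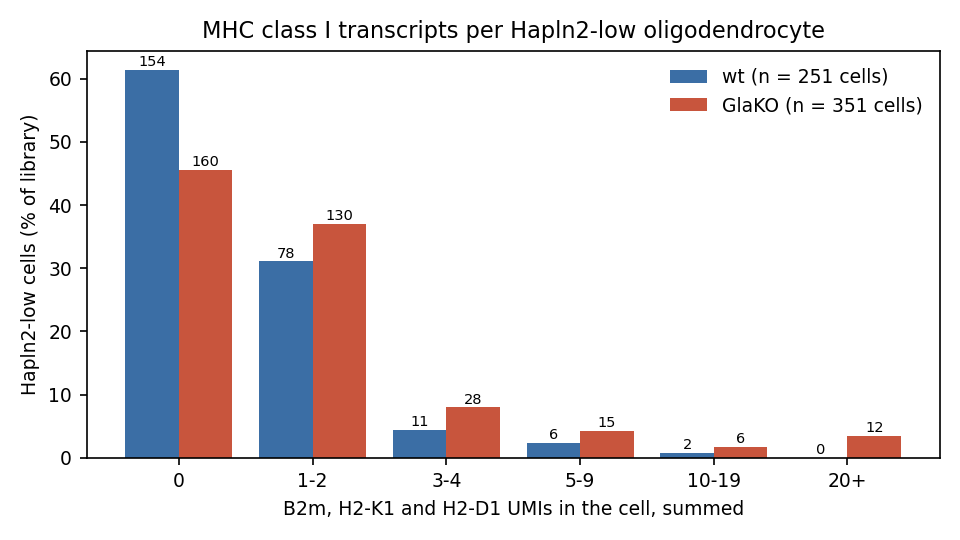
Share of Hapln2-low oligodendrocytes (y axis, % of the library's members) by summed UMIs of B2m, H2-K1 and H2-D1 (x axis) in wt (251 cells, blue) and GlaKO (351 cells, red), with cell counts above the bars. Cells with 20 or more UMIs number 12 in GlaKO and 0 in wt.

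Other genes that interferons are known to induce were looked up after the MHC class I values had been seen, so they are a description of the same cells. Of 19 listed, 7 reached 100 UMIs and 4 were called higher, with B2m, H2-K1 and H2-D1, which prompted the list, among them. Of all 4779 genes compared, 3.54% were called higher. Among sparser ones, Psmb8, an immunoproteasome subunit, had 4 UMIs in wt and 45 in GlaKO members, and Irgm1, an interferon-induced GTPase, 3 and 30. Without cells holding other markers Psmb8 had 4 and 16 UMIs, a ratio of 1.44 (-0.19 to 3.48), and Irgm1 3 and 29, a ratio of 2.71 (1.02 to 5.07). Irf1 (-0.40), Xaf1 (-0.19), Psme2 (-0.14), Bst2 (0.08), Irf9 (0.15), Psme1 (0.28) and Tapbp (0.37) had intervals that included equal levels.

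Myelin, lipid and lysosomal genes differed little between the genotypes. Of 12 myelin genes outside the gate, 5 had the interval below equal levels and 0 above, none passed 1.5-fold, and the median was -0.03. Among all genes compared, 6.36% had the interval below and 9.52% above. Mobp, a basic protein of myelin, was at 2231 CPM in wt and 1869 CPM in GlaKO members, a ratio of -0.26 (-0.33 to -0.18), while Mbp had 0.03 (-0.01 to 0.08). The 18 genes of galactolipid and fatty acid synthesis had a median of 0.07 and the 13 of cholesterol synthesis -0.13, where Hmgcs1, which commits acetyl groups to the pathway, had -0.51 (-0.78 to -0.24). The 9 measured genes of lysosomal sphingolipid breakdown, the process to which alpha-galactosidase A belongs, had a median of 0.04. Gm2a, an activator of ganglioside breakdown, was at 0.44 (0.07 to 0.82) and Hexa at -0.20 (-0.56 to 0.18). Ppt1, a palmitoyl thioesterase of the lysosome, had 0.71 (0.39 to 1.05), beside 0.57 in Hapln2-rich cells. Of the mitochondrially encoded genes, mt-Nd4l had -0.87 and mt-Nd4 0.50, 2 genes that overlap, so reads in the shared stretch are uncertain.

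The ratio of GlaKO over wt was at least 1.5-fold above that in Hapln2-rich cells, with intervals that did not overlap, for 50 of 4776 genes (1.05%), and below it for 11 (0.23%). B2m, H2-K1, H2-D1, Vegfa, Pabpc1, Setd1b, Crlf3, Ifnar1 and Rlf were among the 50, and Csnk1d among the 11. Hbb-bs was also among the 11, through the 1 Hapln2-rich barcode described above. Without cells holding other markers 18 of 4137 genes were above, 12 of them among the 50. The difference between the ratios has no replicate behind it and was not tested.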

How the data were processed

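Raw UMI counts per gene and barcode, as the authors deposited them for 1 wt and 1 GlaKO library, were used without further scaling. Per the submitters' processing notes they come from Cell Ranger 6.0.1 on mm10. Gene annotation, barcode filters and the number of mice per library: not given in the sources used here.

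Members were gated on raw UMIs. For each class of a library, CPM is the sum of a gene's UMIs over that of all genes. Ratios have exact conditional 95% intervals, shares exact Clopper-Pearson intervals, and sums exact Poisson intervals (Python 3.11.15, numpy 2.4.6, scipy 1.17.1). They cover counting error only. Genes needed 100 UMIs, and a call needed 1.5-fold and an interval beyond equal levels. The genes named are the 12 with the largest ratio in each direction among called genes. Ribosomal and mitochondrial genes, gate and cut genes and genes with over 20% of their UMIs in 1 cell were left out, as were, between genotypes, genes under 10% of their level in another class in both libraries, so a gene could pass through the library where it is high. Named too are the highest and lowest member of each list; other list members named were chosen after their values were seen. No doublet caller was run: barcodes with 5 or more UMIs of another type's markers were kept, and dropped in an alternative. Members were clustered with scanpy 1.11.5 (Leiden, resolution 0.5). TMM factors came from edgeR 4.0.16, which ran no test. The interval code was tested on simulated data. The members and gene lists were chosen with earlier results of these data known. The interferon list, the MHC class I cells and the newly formed cells were chosen after their values were seen. Some genes that meet these rules are not reported here.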

Additional observations from a re-analysis of the deposited data

How the results depend on the processing

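No paired analysis was possible because each genotype has 1 library, and leaving out a replicate was not possible for the same reason. The wt share of members among oligodendrocytes, 29.2%, was 5.92% with the cut at no UMI, 16.6% at 1 or fewer, 47.4% at 4 or fewer, 22.5% at none after thinning to 2000 UMIs and 24.5% in cells of 4000 UMIs or more. The GlaKO share, 25.4%, was 6.30%, 15.7%, 43.3% and, in cells of 4000 UMIs or more, 22.7%. Of 6106 genes, 60 (0.983%) were higher and 102 (1.67%) lower in members than in Hapln2-rich cells. At a minimum of 20 UMIs 149 of 9682 (1.54%) were higher. At 500 the counts were 11 and 42 of 1871 (0.588% and 2.24%), and after thinning 11 and 45 of 2897 (0.38% and 1.55%). With the cut made after thinning they were 30 and 41 of 6038 (0.497% and 0.679%). Between the genotypes, 169 of 4779 genes (3.54%) were higher and 52 (1.09%) lower in GlaKO members. At a minimum of 20 UMIs the counts were 517 and 165 of 9268 (5.58% and 1.78%). At 500 they were 8 and 7 of 1104 (0.725% and 0.634%). After thinning they were 56 and 24 of 2071 (2.7% and 1.16%), of which 17 and 10 were among the first. With the cut at no UMI 79 of 1457 (5.42%) were higher, fewer genes but a larger share. Without cells holding other markers 88 of 4137 (2.13%) were higher. Of 4779 genes, 84 (1.76%) were lower with TMM scaling and 80 (1.67%) with equal weight of 5 depth bins. The 50 genes whose ratio lay above that of Hapln2-rich cells were 1.05% of 4776. They became 100 of 9239 (1.08%) at 20 UMIs and 4 of 1104 (0.362%) at 500. After thinning there were 9 of 2071 (0.435%), and without cells holding other markers 18 of 4137 (0.435%). The 11 below, 0.23% of 4776, became 35 of 9239 (0.379%) at 20 UMIs and 0 of 1104 at 500. With TMM scaling there were 18 of 4776 (0.377%) and with depth bins 27 (0.565%). After thinning there were 4 of 2071 (0.193%), and with the cut made after thinning 28 of 5127 (0.546%). With the cut at no UMI there were 25 of 1456 (1.72%). Atf3 in wt members over Hapln2-rich cells changed sign to -0.018 with the cut made after thinning and Nr4a1 to -0.048 with the cut at no UMI. Cdkn1a in GlaKO over wt members changed to 1.24 with the cut at no UMI. The cause was not tested; a higher minimum and thinning leave fewer genes and UMIs to compare. Of the values for single genes and lists, 1270 stayed within the main interval of the gene or a fixed margin of the list median. Another 297 moved beyond it. Changes of sign were counted for single genes alone, and there were 3. A list median that crossed equal levels, as the antioxidant median did after thinning, was counted by the size of its move. These counts take in 4 values without single cells that were added after the data were seen.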

Other observations

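Beside the 2 GlaKO members rich in transcripts of newly formed oligodendrocytes, another held 15 UMIs of Tnr. It also held 26 UMIs of Pdgfra, the receptor that marks precursors, and 78 UMIs of the markers of another cell type.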
